A study of Mus musculus with 6 samples.

Results

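Genes named after the crystallins, the proteins of the lens, were followed across the cell types of the mouse retina. They were Cryaa, Cryab, Cryba1, Cryba2, Cryba4, Crybb1, Crybb2, Crybb3, Crygs and Crym, taken by name, 10 of the 52636 genes of the count table. Retinas of male C57BL/6J mice aged 12 months were dissociated with papain and sequenced cell by cell on the 10x platform from the 3′ end, where each captured transcript is counted once by its unique molecular identifier (UMI). The genotypes were Dram2 wt/wt (3 retinas) and Dram2 ko/ko (3 retinas), the latter carrying a CRISPR deletion of exon 4 of Dram2, an autophagy and lysosome membrane gene, in all cells of the body. Replicates 1 and 2 of each genotype formed batch 2 and replicate 3 of each formed batch 1. The labels do not say whether the 6 retinas came from 6 animals, so the spread between them may be partly technical. The 5 cell types are those deposited by the authors: photoreceptors (42359 cells), interneurons (2083), glia (942), mesenchymal cells (246) and cells of the retinal pigment epithelium, RPE (116). A further 629 cells had no type.

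The 6 retinas held 7014 to 9242 cells and 3463728 to 6563762 UMIs each. The UMI count of a typical cell differed between types, with a median of 428 UMIs in photoreceptors, 1844 in interneurons, 1683 in glia, 1905 in mesenchymal cells and 1122 in RPE cells. Mitochondrial genes took 0.405% to 0.720% of the UMIs in batch 2 and 2.75% and 3.22% in the ko/ko and wt/wt retinas of batch 1. Dram2, whose counted 3′ end lies outside the deleted exon and so does not check the genotype, had 27.8, 34.8 and 56.0 CPM (UMIs of a gene in 1000000 UMIs of the same sum) in wt/wt replicates 1, 2 and 3 and 27.4, 34.0 and 53.5 CPM in ko/ko replicates 1, 2 and 3. The cells carry running numbers in place of barcodes, so barcodes shared between libraries could not be counted.

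Crystallins are the abundant soluble proteins that give the lens its refractive index. The alpha crystallins are small heat shock proteins, chaperones that hold unfolded proteins in solution, and alphaB is made in many tissues outside the lens. The beta and gamma crystallins share a structural fold and are best known from lens fibre cells, while mu crystallin is unrelated to both and binds thyroid hormone and reduces ketimines. In the retina, crystallin transcripts are known from Müller glia, the radial glia that span the tissue, and from astrocytes, and they can also be carried over from the lens at dissection.

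Of the 10 genes, 8 had at least 1 UMI and 2 had none. Cryaa, the lens alphaA chaperone (ENSMUSG00000024041, chromosome 17, 31677807 to 31681733, plus strand, GRCm38 with GENCODE M21), and Cryba1, the betaA3/A1 chain (ENSMUSG00000000724, chromosome 11, 77718615 to 77725283, minus strand), were not counted in any of 46375 cells. With 28002465 UMIs in all, a count of 0 allows up to 0.107 CPM. Cryab had 1629 UMIs and Crym 1414. The 6 others had 71 UMIs (Crybb1), 28 (Crybb3), 21 (Cryba4), 6 (Cryba2), 3 (Crygs) and 1 (Crybb2). Intervals of UMIs per 1000 cells and limits for a count of 0 cover counting error only, whereas intervals of folds include the spread between retinas.

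Cryab, the alphaB chaperone (ENSMUSG00000032060, chromosome 9, 50751325 to 50756636, plus strand), was high in glia and RPE cells and low elsewhere. In glia, the wt/wt retinas had 619, 576 and 858 CPM for replicates 1, 2 and 3, and the ko/ko retinas 771, 475 and 954 CPM. In RPE cells the same retinas had 1048, 940 and 1223 CPM, and 760, 1153 and 1230 CPM. Both types stood far above the rest in every retina, and their ranges overlapped each other. The means were 1059 ± 184 CPM in RPE cells and 709 ± 183 CPM in glia (SD, n = 6 retinas). Mesenchymal cells followed with 35.5 ± 22.6 CPM, interneurons with 12.9 ± 7.01 CPM and photoreceptors with 8.78 ± 3.85 CPM. The ranges of neighbours in this order overlapped, except between glia (lowest 475 CPM) and mesenchymal cells (highest 77.2 CPM). The types were themselves built from these counts, so no test of their order is given.

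Crym, the thyroid hormone binding mu crystallin (ENSMUSG00000030905, chromosome 7, 120186380 to 120202111, minus strand), was high in glia alone among the 5 types. The glia of wt/wt replicates 1, 2 and 3 had 584, 596 and 827 CPM, and those of ko/ko replicates 1, 2 and 3 had 630, 709 and 974 CPM. RPE cells held 1 Crym UMI, in ko/ko replicate 3, and none in the other 5 retinas. Glia thus held both genes in every retina, whereas RPE cells held Cryab with almost no Crym. The mean in glia was 720 ± 154 CPM, against 19.8 ± 18.4 CPM in mesenchymal cells, 7.70 ± 3.05 CPM in photoreceptors and 5.68 ± 3.72 CPM in interneurons (SD, n = 6 retinas). The lowest glial value, 584 CPM, lay above the highest value of any other type, 58.6 CPM in the RPE cells with 1 UMI. The ranges of the 4 other types overlapped one another.

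**Figure D1:**
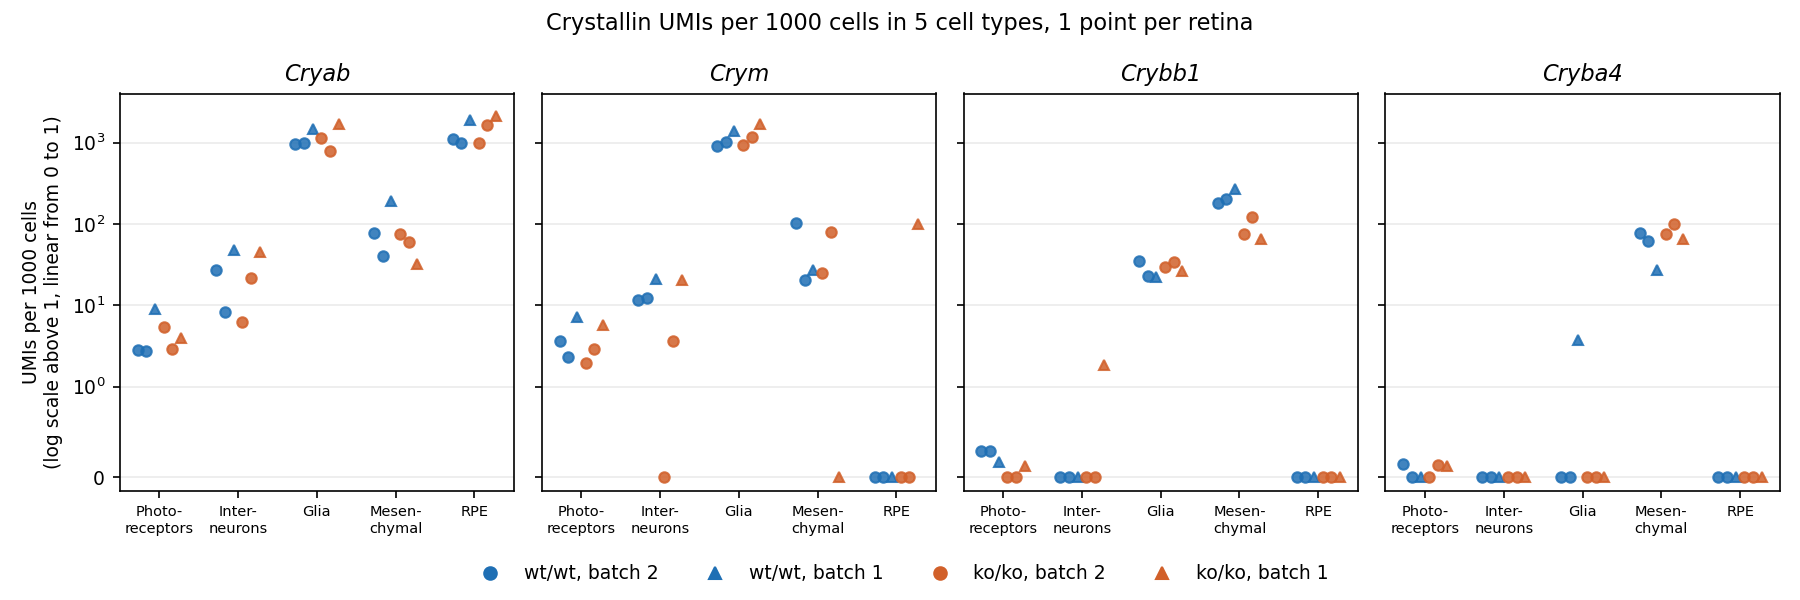
UMIs per 1000 cells (log scale above 1, linear from 0 to 1) of 4 crystallins in the 5 cell types, with 1 point for each of the 6 retinas, colour for genotype and shape for batch. Cryab stands high in glia and RPE cells, Crym in glia, and Crybb1 and Cryba4 in mesenchymal cells.

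Free RNA released by broken cells enters every droplet, so it adds a similar number of UMIs per cell to every type. UMIs per 1000 cells were therefore set against the photoreceptors of the same retina. The 10 rod markers, whose transcripts belong to the most numerous cells, were set beside them; free RNA and doublets cannot be told apart in these counts. They had 37932 UMIs per 1000 photoreceptors, 17999 per 1000 glia, 21262 per 1000 interneurons, 18907 per 1000 mesenchymal cells and 12810 per 1000 RPE cells. Over the single retinas they kept 0.247 (RPE cells) to 0.665 (mesenchymal cells) of the photoreceptor level. Cryab had 4.32 UMIs per 1000 photoreceptors and 1271 per 1000 glia, a ratio of 294 that ran from 163 to 421 over the retinas. Its ratio in RPE cells was 321, with 184 to 553 over the retinas. Crym had 3.97 UMIs per 1000 photoreceptors and 1272 per 1000 glia, a ratio of 321 that ran from 193 to 469. In RPE cells the ratio of Crym was 2.17, which rests on the single UMI. In deeper cells, with at least 500 UMIs and no more than 10% mitochondrial, Cryab had 6.98 UMIs per 1000 photoreceptors and 1380 per 1000 glia. Neither gene was spread evenly.

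The same comparison can be turned round, with glia as the base. Photoreceptors held 0.340% of the glial level of Cryab and 0.312% of that of Crym. The 10 Müller glia markers, among them Glul (glutamine synthetase), Slc1a3 (a glutamate transporter) and Aqp4 (a water channel), held 0.140% to 0.411%. Both crystallins lay inside this range. In interneurons Cryab held 2.61% and Crym 1.17% of the glial level, and the 10 markers 0.655% to 5.06%. RPE cells held 109% of the glial level of Cryab and 0.678% of that of Crym. There the 10 Müller markers ran from 0% to 109%, with a median of 3.73%. Slc1a3 and Kcnj10 stood at 0%, Glul at 3.1% and Clu, Rlbp1 and Car14 between 40.2% and 109%. The last are genes that RPE cells are known to make themselves.

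**Figure D2:**
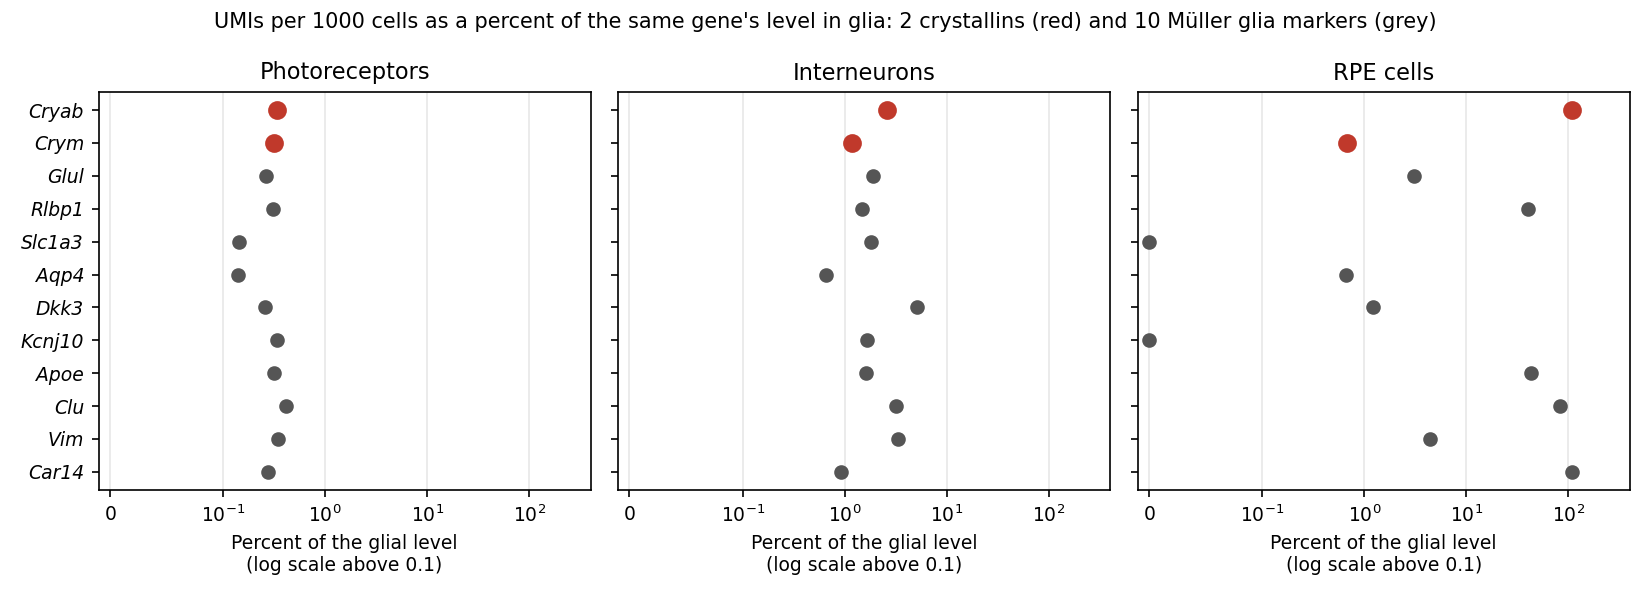
UMIs per 1000 cells of Cryab and Crym (red) and of 10 Müller glia markers (grey) in photoreceptors, interneurons and RPE cells, as a percent of the same gene's level in glia (log scale above 0.1). In photoreceptors all 12 genes lie close together, between 0.140% and 0.411%, whereas in RPE cells Cryab lies at 109% and Crym at 0.678%.

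The ratio of the genes to each other was also compared between types, with the source of the UMIs not tested. Crym had 1.00 UMI for each Cryab UMI in glia, with 0.817 to 1.49 over the 6 retinas. In photoreceptors the ratio was 0.918 (0.361 to 1.45 over the retinas), in mesenchymal cells 0.579 (0 to 1.33) and in interneurons 0.449 (0 to 1.5). The interneuron range reached that of glia only in wt/wt replicate 2, with 2 Cryab and 3 Crym UMIs, and stood at 0.448 and 0.458 in wt/wt and ko/ko replicate 3, which had the most UMIs. In RPE cells it was 0.006, with 0.048 in the highest retina. Counted over the 10 crystallins together, Cryab made up 49.3% of the crystallin UMIs of glia and Crym 49.3%. In RPE cells 99.4% of the crystallin UMIs were Cryab, and in mesenchymal cells 43.2% were Crybb1 and 19.3% Cryba4. Photoreceptors, which were 91.3% of all cells, held 11.2% of the Cryab UMIs and 11.9% of the Crym UMIs, while glia, 2.03% of the cells, held 73.5% and 84.7%.

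**Figure D3:**
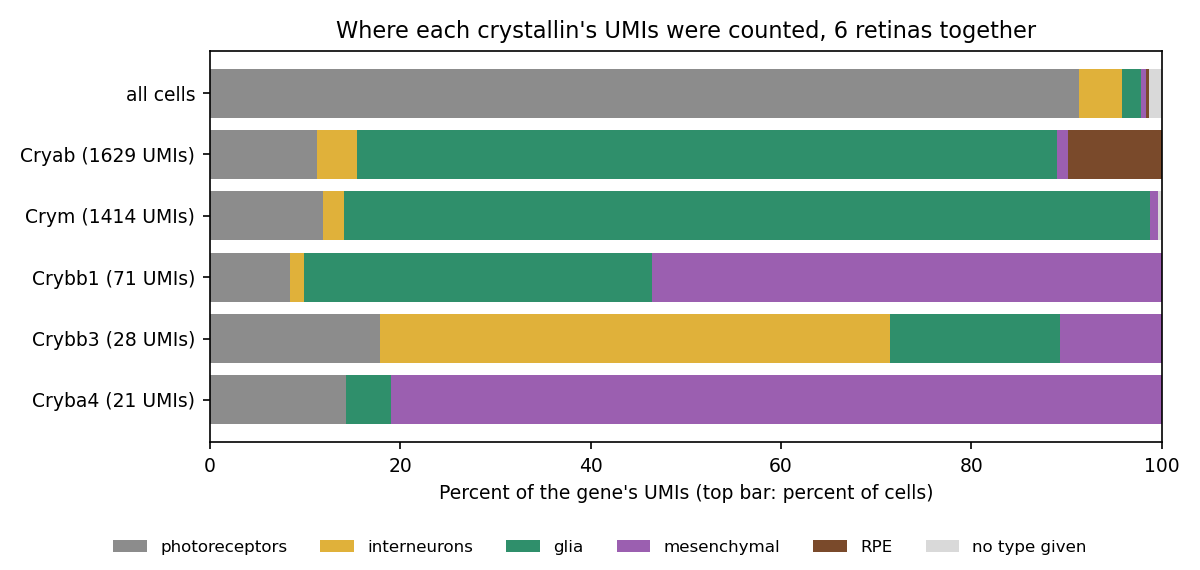
Percent of the UMIs of each crystallin with at least 20 UMIs that were counted in each cell type, over the 6 retinas together, with the percent of cells in each type as the top bar. Glia take 73.5% of Cryab and 84.7% of Crym, and mesenchymal cells 53.5% of Crybb1 and 81.0% of Cryba4.

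By cell, 63.4% of glia had a Cryab UMI and 63.1% a Crym UMI, against 0.423% and 0.392% of photoreceptors. The depths differed, so each cell was also thinned to 400 UMIs, which left out 19409 photoreceptors, 15 RPE cells, 16 mesenchymal cells, 55 glia and 61 interneurons. At that depth 27.1% of glia and 0.314% of photoreceptors had a Cryab UMI, and 25.9% and 0.301% a Crym UMI. RPE cells had a Cryab UMI in 64.7% of cells and 36.6% when thinned. Interneurons had a Cryab UMI in 3.02% of cells and in 0.346% when thinned, which is 7 of 2022 cells in 1 random draw. Of the 942 glia, 429 held both genes, 168 Cryab alone, 165 Crym alone and 180 neither. The 180 glia with neither had a median of 922.5 UMIs and the 429 with both a median of 1910 UMIs. Of the 116 RPE cells, 74 held Cryab alone and 1 held both.

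Photoreceptors with a UMI of either gene had a higher summed level of the Müller markers, given here without a test. The 166 photoreceptors with Crym had 1011 CPM of the Müller markers, and those without had 585 CPM. The 179 with Cryab had 715 CPM, and those without had 587 CPM. Over the retinas, the Müller markers in photoreceptors stood at 642, 353 and 902 CPM in wt/wt replicates 1, 2 and 3, where Cryab stood at 6.48, 5.77 and 14.8 CPM. In ko/ko replicates 1, 2 and 3 the markers stood at 589, 401 and 618 CPM and Cryab at 12.4, 6.13 and 7.06 CPM. Cones were looked at apart by their UMIs of a cone list: 1632 photoreceptors had at least 3. They held 10.7 CPM of Cryab and 8.97 CPM of Crym, and the other photoreceptors 8.41 and 7.83 CPM. Per 1000 cells this was 15.3 Cryab UMIs (95% exact Poisson interval 9.91 to 22.6) against 3.88 (3.30 to 4.53), at median depths of 1306 and 417 UMIs. Photoreceptors just outside the limit, with 2 cone UMIs, had 8.70 CPM of Cryab, and those just inside, with 3, had 7.61 CPM. Crym went the other way, with 9.94 CPM (16 UMIs) just outside and 12.7 CPM (5 UMIs) just inside.

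Within glia, a small group of astrocyte-like cells held Cryab without Crym. Glia were clustered into 10 clusters with every crystallin gene left out, and a cluster was named only where at least 3 of its 10 leading genes belonged to 1 marker list. Müller glia-like were 5 clusters with 596 cells, 1 with 17 cells was astrocyte-like (led by Igfbp5, Ccn2, S100b and Gfap) and 4 with 329 cells stayed unnamed (Cryab 850 CPM, Crym 863 CPM). The 17 astrocyte-like cells, which came from all 6 retinas, held 21 Cryab UMIs in 9 cells and no Crym UMI. By retina the Cryab UMIs were 5, 3 and 2 in wt/wt replicates 1, 2 and 3 and 1, 3 and 7 in ko/ko replicates 1, 2 and 3. Of the 21 UMIs, 7 lay in 1 cell of ko/ko replicate 3 and 5 in 1 cell of wt/wt replicate 1. Cryab stood at 716 CPM in astrocyte-like cells, a level that rests largely on those cells, and at 728 CPM in Müller glia-like cells. Crym stood at 743 CPM in Müller glia-like cells, and the count of 0 in astrocyte-like cells allows up to 102 CPM. In the Müller glia-like clusters Cryab ran from 686 to 2034 UMIs per 1000 cells and Crym from 910 to 1931, so every one of them held both genes. The counts come from clusters of these cells and carry no test.

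Among mesenchymal cells, Cryab lay mostly in pericyte-like cells. The mesenchymal class was clustered in the same way, a step added after the data were seen, and gave 7 clusters. A cluster of 40 cells led by Rgs5, Myl9 and Acta2, and therefore pericyte-like, held 13 of the 19 mesenchymal Cryab UMIs, or 325 per 1000 cells (173 to 556), and 2 Crym UMIs. These 13 UMIs came from 5 retinas, with none in ko/ko replicate 3. The 2 unnamed clusters led by Ly6c1 or Cldn5, of 52 and 51 cells, had 2 and 0 Cryab UMIs.

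Crybb1 and Cryba4, the lens betaB1 and betaA4 chains, lay in the microglia-like cells of the mesenchymal class. The genes are neighbours on chromosome 5 and are read in opposite directions, Cryba4 (ENSMUSG00000066975) at 112246493 to 112252518 on the minus strand and Crybb1 (ENSMUSG00000029343) at 112255815 to 112269585 on the plus strand, with 3296 bases between them. Crybb1 is also known as a gene of mouse microglia, the resident immune cells. A cluster of 70 cells led by Ctss, C1qa, C1qb and C1qc held 37 of the 38 mesenchymal Crybb1 UMIs and 13 of the 17 mesenchymal Cryba4 UMIs. Per 1000 cells this was 529 Crybb1 UMIs (95% exact Poisson interval 372 to 729) and 186 Cryba4 UMIs (98.9 to 318), and 24 and 10 of the 70 cells had a UMI. By retina, Crybb1 stood at 191, 253 and 395 CPM in the microglia-like cells of wt/wt replicates 1, 2 and 3 and at 210, 204 and 345 CPM in those of ko/ko replicates 1, 2 and 3. These values rest on 7, 10 and 10 Crybb1 UMIs in wt/wt and 2, 6 and 2 in ko/ko. Every retina thus had Crybb1 there, and on these few UMIs the genotypes overlapped. Cryba4 had 3, 3 and 1 UMIs in these cells in wt/wt and 3, 3 and 0 in ko/ko. RPE cells held no UMI of either gene, which allows up to 19.8 CPM.

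The bases before the starts of both genes are shown because the pair is divergent and both genes had more UMIs in the microglia-like cluster than in all other cells. Each sequence holds 250 bases upstream of the start in the RefSeq annotation of GRCm38.p6, written 5′ to 3′ on the gene's own strand. Capitals mark 3 motifs searched on both strands, GAGGAA (the core of sites of PU.1, a factor of microglia), TGCTGA (one side of a Maf response element) and TATAAA (the TATA box). The Crybb1 sequence lies at chr5:112255570-112255819 on the plus strand and the Cryba4 sequence at chr5:112252519-112252768 on the minus strand.
Crybb1: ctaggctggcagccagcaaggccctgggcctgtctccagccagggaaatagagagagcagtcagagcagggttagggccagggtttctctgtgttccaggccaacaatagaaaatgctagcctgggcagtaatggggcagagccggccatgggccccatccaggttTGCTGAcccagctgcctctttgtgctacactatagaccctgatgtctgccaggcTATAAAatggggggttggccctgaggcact
Cryba4: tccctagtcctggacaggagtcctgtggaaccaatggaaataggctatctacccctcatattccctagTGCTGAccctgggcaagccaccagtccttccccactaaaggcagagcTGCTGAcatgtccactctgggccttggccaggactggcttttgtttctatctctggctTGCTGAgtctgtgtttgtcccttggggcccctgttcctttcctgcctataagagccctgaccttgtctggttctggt
The Crybb1 window held TGCTGA 1 time and TATAAA 1 time, the latter beginning 30 bases before the start, and the Cryba4 window held TGCTGA 3 times. Neither held GAGGAA. Over the 32851 RefSeq promoter windows of the same length, TGCTGA was present in 16.1%, TATAAA in 12.4% and GAGGAA in 23.3%. RefSeq windows were found for 8 of the 10 genes, and a match is a description of the letters only.

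**Figure D4:**
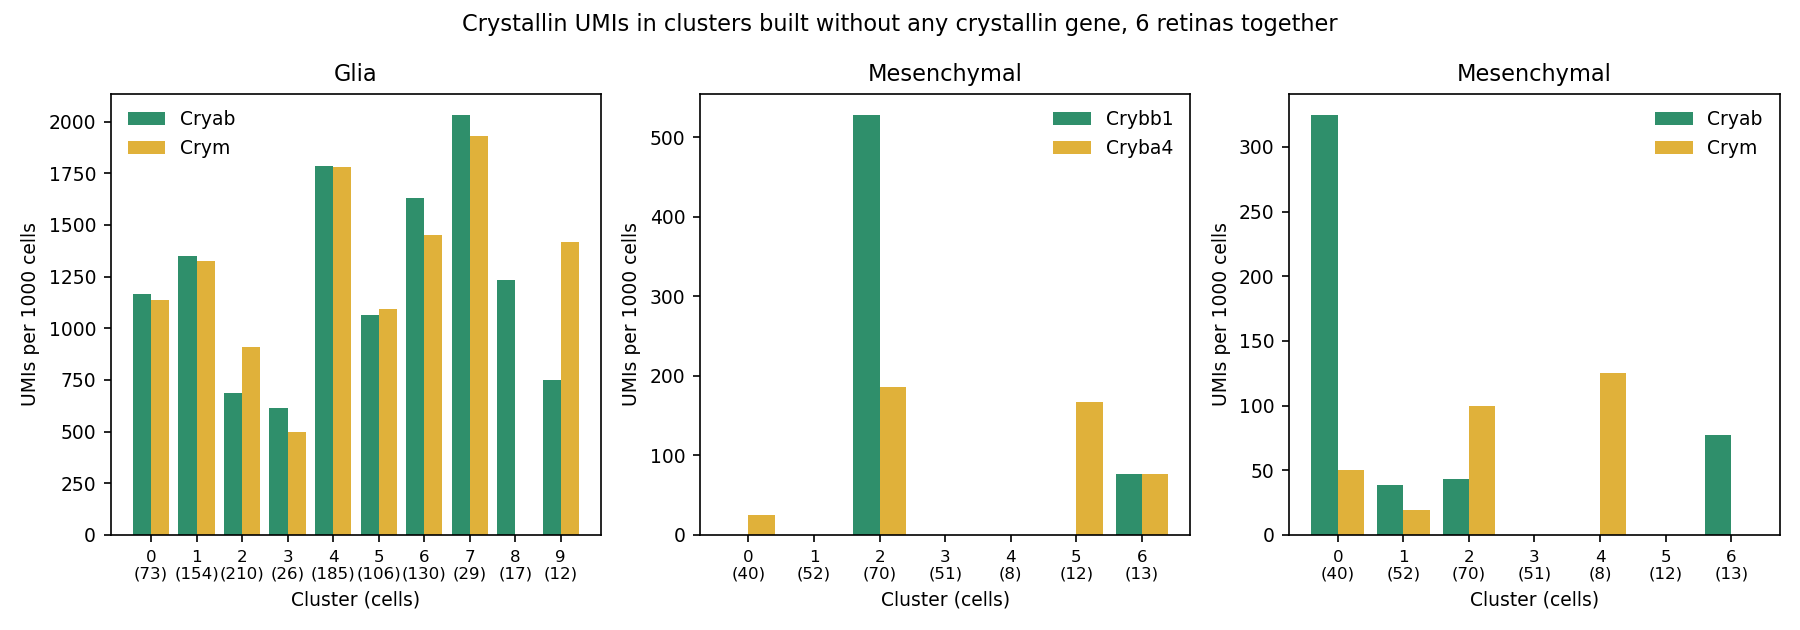
UMIs per 1000 cells in clusters built without any crystallin gene, with the cell number of each cluster in brackets. In glia the 17 cells of cluster 8 (astrocyte-like) show Cryab without Crym, and in the mesenchymal class cluster 2 (microglia-like, 70 cells) holds nearly all Crybb1 and most Cryba4, and cluster 0 (pericyte-like, 40 cells) most Cryab.

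Crybb1 was also counted in glia, at a lower level. Glia held 26 Crybb1 UMIs, with 6, 2 and 6 in wt/wt replicates 1, 2 and 3 and 3, 3 and 6 in ko/ko replicates 1, 2 and 3. The level was 17.6 ± 4.15 CPM (SD, n = 6 retinas). Per 1000 cells, glia had 27.6 UMIs (18.0 to 40.4) and photoreceptors 0.142 (0.052 to 0.308), a ratio of 195. The 6 microglia markers, C1q chains and others, had 35.0 UMIs per 1000 glia and 12.7 per 1000 photoreceptors, a ratio of 2.76. The Müller glia-like clusters held 19 of the 26 UMIs, spread over all 5 of them at 12.99 to 69.0 UMIs per 1000 cells, and the astrocyte-like cells none. Cryba4 had 1 UMI in glia.

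The other beta and gamma members were rare. Crybb3, a betaB3 chain (ENSMUSG00000029352, chromosome 5, 113075839 to 113081584, minus strand), had 28 UMIs, 15 of them in interneurons. Of these, 13 lay in 8 of the 50 cells of a cluster that was amacrine-like by its leading genes (C1ql1, Gad1, C1ql2). The ganglion cell marker Sncg was also among them. Amacrine markers had 25420 UMIs per 1000 cells there and ganglion cell markers 6340, against 1859 and 64.6 in the unnamed interneuron clusters. Some of the unnamed clusters also had amacrine markers among their leading genes. A cluster of 105 cells led by Tfap2b held 0 Crybb3 UMIs, and a cluster of 157 cells with Slc6a9 and Slc32a1 held 1. Their median depths were 3498 and 3082 UMIs. Crybb3 was thus not shown to be a trait of amacrine cells in general. Amacrine cells are the inhibitory interneurons of the inner retina. Of the 13 UMIs in the amacrine-like cluster, ko/ko replicate 3 had 9, while wt/wt replicate 3 and ko/ko replicate 1 had 2 each. That cluster held 31 cells of wt/wt replicate 3, 18 of ko/ko replicate 3 and 1 of ko/ko replicate 1. Thus 49 of its 50 cells were of batch 1 and the other 3 retinas had none. Its median depth of 4588 UMIs was the highest of the 14 interneuron clusters, and doublets were not called. Cryba2 had 3 UMIs in photoreceptors and 3 in interneurons, Crygs, the gammaS chain, 1 each in photoreceptors, interneurons and glia, and Crybb2 1 in an interneuron. None of these 3 genes had more than 1 UMI in a cell.

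Interneurons showed an uneven Cryab count between clusters. Of 69 Cryab UMIs, 23 lay in a cluster of 316 cells led by Gm43670, Gm42769 and Otor, with 3 Crym UMIs beside them. Another 16 lay in a cluster of 163 cells led by Cdh9, Gm32585 and Ngfr, with 5 Crym UMIs. In the first, Cryab was counted in 5 of the 6 retinas. In the second, all 16 were in batch 1, which supplied 149 of its 163 cells, and a cluster of 265 cells that shared Gm32585, Ngfr and Cabp5 among its leading genes, with 29 cells of batch 1, had 2. The part of free glial RNA in these counts was not tested.

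The genes whose pattern over the 30 sums of 5 types and 6 retinas was most like that of each abundant member were found among 11418 genes with at least 200 UMIs. For Cryab they were Rlbp1 (Pearson r = 0.95), a retinoid carrier of Müller glia and RPE, Dbi (r = 0.95), the acyl-CoA binding protein, and Clu (r = 0.95), the extracellular chaperone clusterin. For Crym they were Sbspon (r = 0.92), Col9a1 (r = 0.91), a collagen chain, and Bmp3 (r = 0.91), a growth factor. The genes like Cryab were high in both glia and RPE cells, with 3224 UMIs per 1000 RPE cells for Rlbp1, 2672 for Dbi and 12681 for Clu. Those like Crym had 17.2, 0 and 0 UMIs per 1000 RPE cells. Cryab and Crym correlated with each other at r = 0.32. The 30 sums share their retinas and depths, so these values are descriptions.

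To ask whether loss of Dram2 changed the crystallins, the UMIs of each retina were summed by cell type and ko/ko was compared with wt/wt in edgeR (quasi-likelihood test, Benjamini-Hochberg adjustment over all genes tested). No gene passed an adjusted p under 0.05 in any type: 0% of 13053 genes in photoreceptors, 0% of 7698 in interneurons, 0% of 4130 in glia, 0% of 1717 in mesenchymal cells, 0% of 308 in RPE cells and 0% of 15330 over all cells. At an unadjusted p under 0.05 there were 109, 86, 51, 150, 11 and 101 genes in the same order. Except among mesenchymal cells, these were fewer than chance alone would give at that limit. limma-voom also called 0 in each, and DESeq2 called 1 in RPE cells and 0 elsewhere. The authors' own pseudobulk voom-limma fits differed from these. They reported genes at an FDR under 0.05 in interneurons, mesenchymal cells and RPE cells, none of them among the 10 followed here. With the batch as a covariate, edgeR called 3 genes in RPE cells, 21 among mesenchymal cells and 0 elsewhere, none of them among the 10 followed here. At an unadjusted p under 0.05 that fit had 274, 214, 127, 231, 22 and 420 genes, in the order above. The genotype fold changes and intervals of members given below come from the fit without the batch. That fit counts batch differences as spread between retinas. Few members had the counts to be tested: Cryab and Crym in photoreceptors and in glia, Cryab in RPE cells, none in interneurons or mesenchymal cells, and Cryab, Crym and Crybb1 over all cells.

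In glia, Cryab averaged 733 ± 242 CPM in ko/ko and 684 ± 152 CPM in wt/wt (SD, n = 3 retinas each). The log2 fold change was 0.05 ± 0.25 (SE, edgeR, adjusted p = 1.00), with a 95% interval of the fold from 0.716 to 1.5. Crym averaged 771 ± 180 CPM in ko/ko and 669 ± 137 CPM in wt/wt, with a log2 fold change of 0.16 ± 0.23 (edgeR, adjusted p = 1.00) and an interval of 0.798 to 1.57. The genotypes overlapped for both. In RPE cells, Cryab averaged 1048 ± 252 CPM in ko/ko and 1070 ± 143 CPM in wt/wt, with a log2 fold change of -0.14 ± 0.27 (edgeR, adjusted p = 0.98) and an interval of 0.597 to 1.38. In photoreceptors the intervals were wider, 0.464 to 1.92 for Cryab and 0.428 to 1.72 for Crym. These intervals do not show that the levels are equal.

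Of the 3 members tested over all cells, 1 had genotypes that did not overlap, Crybb1, and 5.28% of the 15330 genes tested there did not overlap either. Over all cells it stood at 3.83, 3.48 and 3.01 CPM in wt/wt replicates 1, 2 and 3 and at 1.73, 2.05 and 1.52 CPM in ko/ko replicates 1, 2 and 3. The log2 fold change was -0.90 ± 0.40 (SE, edgeR, adjusted p = 1.00), with an interval of the fold from 0.283 to 1.01. In mesenchymal cells it stood at 85.9, 107 and 110 CPM in wt/wt and 38.4, 52.6 and 25.7 CPM in ko/ko, below the filter of the test. Microglia-like cells also tended to be fewer in ko/ko, with 16, 22 and 11 in wt/wt and 5, 14 and 2 in ko/ko, but the genotypes overlapped. The 6 microglia markers stood at 339, 371 and 189 CPM over all cells in wt/wt and 165, 279 and 36.7 CPM in ko/ko, also overlapping. Their median log2 fold change was -0.92, and 0 of the 6 were called. Within the microglia-like cells the genotypes overlapped, as given above, on 2 to 10 Crybb1 UMIs per retina. In glia Crybb1 averaged 16.5 ± 5.54 CPM in wt/wt and 18.7 ± 2.98 CPM in ko/ko. In sums over all cells, fewer cells of a type and less RNA per cell cannot be told apart, and the part of microglia-like cell number in the Crybb1 difference was not tested.

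**Figure D5:**
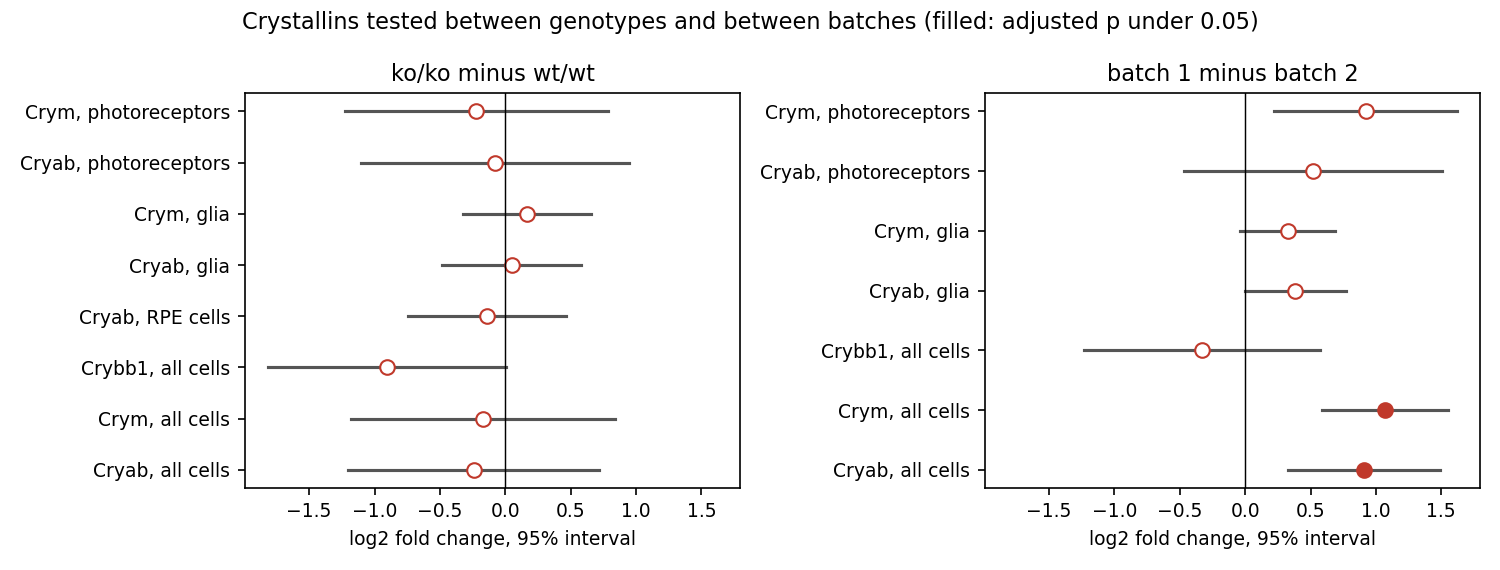
Log2 fold changes (points) with 95% intervals (lines) of the members that had enough counts, ko/ko minus wt/wt on the left and batch 1 minus batch 2 on the right, with filled points for an adjusted p under 0.05. The filled points are Crym and Cryab over all cells between batches, at 1.07 and 0.91, and no genotype difference is filled.

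Between batches, some crystallins and many other genes were called. With genotype in the fit, batch 1 differed from batch 2 in 5.49% of 13749 genes in photoreceptors, 12.5% of 8429 in interneurons, 5.53% of 4790 in glia and 15.2% of 16297 over all cells (edgeR, adjusted p under 0.05). In glia 69 of these were higher in batch 1 and 196 lower, and DESeq2 called 22 and 34. The shares called in each type changed strongly when 1 retina was left out, as given in the closing section. Among the 10 crystallins, 3 were tested over all cells and 2 were higher in batch 1. Cryab stood at 92.3 and 69.3 CPM in wt/wt and ko/ko replicate 3 and at 28.8 to 56.2 CPM in the 4 retinas of batch 2, a log2 difference of 0.91 ± 0.25 (edgeR, adjusted p = 0.047). Crym stood at 76.9 and 67.8 CPM in batch 1 and 27.1 to 47.5 CPM in batch 2, a log2 difference of 1.07 ± 0.21 (edgeR, adjusted p = 0.017). The batches did not overlap for either gene, nor for 41.1% of all genes tested there. Both calls were lost when either batch 1 retina or wt/wt replicate 2 was left out (adjusted p of Crym 0.061 to 0.14), and when cells under 500 UMIs or over 10% mitochondrial UMIs were removed. With 1 retina left out the differences stayed at 0.93 to 1.27 for Crym and 0.76 to 1.10 for Cryab. Without a batch 1 retina that batch is 1 retina, assumed to vary like the others. That of Cryab was lost also without wt/wt replicate 1 or ko/ko replicate 2, with adjusted p of 0.079 to 0.31 over the 5 retinas.

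Glia made up 3.84% and 2.43% of the cells of batch 1 and 1.10% to 2.24% of those of batch 2. Over all cells, the 10 Müller glia markers had a median log2 batch difference of 0.69. Of these, 1 was called higher in batch 1, where 15.2% of all genes were called. The part of glial cell number in the Cryab and Crym differences was not tested. Within glia the batch difference was 0.38 ± 0.18 for Cryab and 0.33 ± 0.17 for Crym on the log2 scale, and neither passed (edgeR, adjusted p = 0.23 and 0.28). Without ko/ko replicate 1 the Cryab difference in glia was 0.54 and passed (edgeR, adjusted p = 0.007), as did both genes in photoreceptors, at 0.92 for Cryab and 0.87 for Crym (edgeR, adjusted p = 0.027 and 0.030). In those fits 18.5% of all genes in glia and 32.9% in photoreceptors were called. With all retinas, the differences in photoreceptors were 0.52 ± 0.43 and 0.92 ± 0.30 (edgeR, adjusted p = 0.49 and 0.11). Crybb1 over all cells differed by -0.33 ± 0.39 (edgeR, adjusted p = 0.60). Crybb3 was below the filter, and in the fit without it was higher in batch 1 by 2.59 ± 0.78 (edgeR, adjusted p = 0.040), where 9.53% of 32905 genes were called. Of its 28 UMIs, 13 lay in the amacrine-like cluster, with 49 of its 50 cells from batch 1. Photoreceptors, glia and mesenchymal cells held 3, 5 and 3 Crybb3 UMIs in batch 1 and 2, 0 and 0 in batch 2. The part of the cluster in the Crybb3 difference was not tested.

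Other genes tied to crystallins were counted from lists. Of 15 other crystallin-named genes, 14 were in the table and 9 had a UMI. The gamma genes Crygb, Crygc, Crygd, Cryge and Crygf had none. Those with at least 20 UMIs were the zeta crystallin Cryz (279 UMIs) and its relatives Cryzl1 (2547) and Cryzl2 (75), the lambda crystallin Cryl1 (67) and Crybg3 (260). Cryzl2 had 43.5 UMIs per 1000 glia, 43.1 per 1000 RPE cells and 0.543 per 1000 photoreceptors. Crybg3 had 58.1 per 1000 interneurons and 1.06 per 1000 glia. Of 12 listed lens markers, 3 had no UMI and 2 had at least 20. Their summed level was 23.9 to 30.03 CPM in the 6 retinas. Of the 706 UMIs, 614 were Lenep, so the sum is not a level of lens fibre RNA. Lenep had 11.9 UMIs per 1000 photoreceptors, 34.6 per 1000 interneurons and 30.8 per 1000 glia. Hsf4, a heat shock factor of the lens, had 51 UMIs. Mip, the water channel of lens fibres, had 2 UMIs, and Gja3, Birc7 and Dnase2b had none.

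Of the genes listed under the small heat shock name, Hspb1, Hspb2, Hspb6 and Hspb11 had at least 20 UMIs. The shared name does not make each of them a relative of Cryab. Hspb1 had 1065 UMIs per 1000 mesenchymal cells and 9.55 per 1000 glia. Hspb2, which overlaps the start of Cryab on the opposite strand, had 35 UMIs, 15.9 per 1000 glia, 56.9 per 1000 mesenchymal cells and 17.2 per 1000 RPE cells. Hspb6 (5914 UMIs) and Hspb11 (1061) were counted in all 5 types. Of 10 transcription factors known to act on crystallin genes in the lens, 7 had at least 20 UMIs. Sox2 was high in glia, with 454 UMIs per 1000 cells against 12.2 or fewer in every other type, and Pax6 had 1891 per 1000 glia and 779 per 1000 interneurons. Maf had 379 per 1000 glia and 508 per 1000 mesenchymal cells, Prox1 775 per 1000 interneurons, Mafg 154 per 1000 mesenchymal cells and Rarb 25.5 per 1000 glia, and Foxe3 and Pitx3 had no UMI. None of the genes tested in these 4 lists passed between genotypes (edgeR, adjusted p under 0.05). Between batches over all cells, where 15.2% of all genes were called, 6 of the factors were tested and 2 called: Pax6 was higher in batch 1, by 1.77 ± 0.21 on the log2 scale (edgeR, adjusted p = 0.0035), and Rarb lower, by -0.74 ± 0.21 (edgeR, adjusted p = 0.046). The Pax6 call was lost without ko/ko replicate 3 (adjusted p = 0.053), and that of Rarb without any 1 retina except ko/ko replicate 1 (adjusted p = 0.083 to 0.42, differences of -0.96 to -0.53). Interneurons were 8.70% and 5.80% of the cells of batch 1 and 2.26% to 3.45% of those of batch 2. All 8 amacrine markers, a list that includes Pax6 itself, were higher in batch 1, with a median log2 difference of 3.44. The part of interneuron number in the Pax6 difference was not tested. Within types, Pax6 was higher in batch 1 in interneurons, by 2.30 ± 0.28, and in photoreceptors, by 2.19 ± 0.30 (edgeR, adjusted p = 2.7e-05 and 0.014), and differed by -0.03 ± 0.17 in glia (adjusted p = 0.95). The photoreceptor call was lost without any 1 of the wt/wt retinas (edgeR, adjusted p = 0.088 to 0.21, differences of 1.68 to 2.09). Of 4 factors tested in interneurons Maf was also higher, by 2.59 ± 0.41 (edgeR, adjusted p = 0.00035). None of the 4 others tested in photoreceptors and none of 4 in glia passed. Among all genes tested between batches, 12.5% were called in interneurons, 5.49% in photoreceptors and 5.53% in glia. Over all cells, none of the 5 other crystallin-named genes, the 3 genes of the small heat shock list and the 1 lens marker tested between batches passed. Their median log2 differences were 0.52, 0.58 and -0.31, beside -0.03 over all genes.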

How the data were processed

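The authors aligned the reads to mm10 (GRCm38) with Cell Ranger 3.1.0, per the submitters' processing notes, counted exonic reads and deposited raw UMI counts per gene and cell, not normalized, with a table of sample, batch and cell type per cell. Their cell types came from Seurat clusters after integration over the batch. Gene loci were taken from GENCODE M21. The counts were summed per retina and type and tested with edgeR 4.0.16 (glmQLFit, TMM, filterByExpr), for genotype alone or for batch with genotype as a covariate. limma 3.58.1 (voom) and DESeq2 1.42.0 were alternatives. The edgeR genotype fit was also run on simulated counts of photoreceptors and glia. These were drawn without a batch effect, so that run does not show how the fits behave on these data. Clusters were made with scanpy 1.11.5 (2000 variable genes, 30 components, 15 neighbours, resolution 1). Doublets were not called. A count of 0 was read as allowing 3 counts, and intervals of UMIs per 1000 cells are 95% exact Poisson, while those of folds come from the edgeR fits.

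The members and lists were chosen with earlier results of these data known. The text names all 10 members and the 3 genes most alike to each member with at least 200 UMIs (Pearson r of log2(CPM + 1)). It also names the genes with at least 20 UMIs in the lists of other crystallins, lens markers, small heat shock names and transcription factors. List genes named below 20 UMIs and genes that lead a cluster were chosen after their values were seen. The closest libraries, wt/wt replicates 1 and 2, had a chi-square of 1.67 per degree of freedom and were kept as separate samples. The labels in part speak of choroid and of other sample numbers, and the sample table was followed.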

Additional observations from a re-analysis of the deposited data

Results flagged for a closer look

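In photoreceptors of the 4 retinas of batch 2, ko/ko replicate 1 stood apart for Cryab, at 12.4 CPM against 6.48 CPM for the next highest, a gap of 0.894 of the whole range. Of 10 such sets of 4 retinas 1 stood out, and chance flags about 1 in 20. Crym in the same photoreceptors was 4.49 CPM, the lowest of the 6 retinas. Among the 629 cells without a deposited type, which entered the sums over all cells and no comparison by type, 5 Crym UMIs were counted and no Cryab UMI, where a count of 0 allows 3.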

How the results depend on the processing

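The mean CPM of Cryab, Crym, Crybb1 and Cryba4 in the types where they were described moved by less than 1 SD of the retinas in the stricter cells (at least 500 UMIs, at most 10% mitochondrial) and without the 5% of cells with most UMIs. Per 1000 cells, the stricter cells held 6.98 Cryab UMIs in photoreceptors, 1380 in glia and 1641 in RPE cells. Thinning to 400 UMIs lowered the share of glia with a Cryab UMI to 27.1% and with a Crym UMI to 25.9%, and of RPE cells with a Cryab UMI to 36.6%, since it removes counts. Genotype calls were 0 in each main fit. Without a filter on low counts they were 1 each in photoreceptors, interneurons and all cells, 28 among mesenchymal and 3 among RPE cells. The batch covariate gave 21 (mesenchymal) and 3 (RPE), and DESeq2 gave 1 (RPE). With the replicate block, which pairs retinas by number, they were 26 and 4, and it changed no call of a member. The numbers are not shown to pair the retinas. In photoreceptors the deviations of same-numbered retinas correlated at 0.52, -0.067 and 0.54 for replicates 1, 2 and 3. Those of wt/wt replicate 2 and ko/ko replicate 3 correlated at 0.50. Leaving out 1 retina gave 0 to 7 (mesenchymal, highest without ko/ko replicate 2) and 0 to 2 (RPE, highest without wt/wt replicate 3). No crystallin was called between genotypes in 103 alternatives of 8 results, with a smallest adjusted p of 0.73.

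Batch calls without the filter were 2295 in photoreceptors, DESeq2 gave 437 in interneurons and 56 in glia, and the stricter cells gave 1452 over all cells. With 1 retina left out the calls ran from 152 to 6341 (all cells), 20 to 4437 (photoreceptors), 32 to 1068 (glia) and 364 to 2359 (interneurons), each highest without ko/ko replicate 1, and the cause was not tested.

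Genotype log2 fold changes of members that turned sign, none of them called, ran when 1 retina was left out from -0.64 to 0.15 for Crym and -0.40 to 0.49 for Cryab in photoreceptors, -0.15 to 0.26 for Cryab in glia, -0.254 to 0.071 for Cryab in RPE cells, and -0.68 to 0.26 for Crym and -0.58 to 0.18 for Cryab over all cells. Cryab in glia was -0.012 without the cells with most UMIs. The Cryab batch difference in photoreceptors ran from -0.32 to 1.28. Crybb1 over all cells stayed lower in ko/ko, from -1.02 to -0.80. The stricter cells gave batch differences over all cells of 0.76 for Crym and 0.54 for Cryab, no longer called (adjusted p = 0.054 and 0.25). Depth leaves wide intervals for Crybb1 and Crybb3 and limits the 4 other members under 200 UMIs to counts.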
